A study of Mus musculus with 14 samples.

Results

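Complex I of the respiratory chain, NADH:ubiquinone oxidoreductase, is built from subunits encoded in the nucleus and subunits encoded in mitochondrial DNA. Its nuclear-encoded subunits were taken from the expression table by symbol: every row named Ndufa, Ndufb, Ndufc, Ndufs or Ndufv directly followed by a number, and Ndufab1. The assembly factors (Ndufaf genes) were left out. This gave 41 of the 19940 genes in the table. Of these, 37 encode the established nuclear subunits, and all 37 were measured: 7 catalytic core and 30 accessory subunits. The other 4 rows were Ndufa4, whose product is now assigned to cytochrome c oxidase, its relative Ndufa4l2, the pseudogene Ndufa12-ps and the Ndufb4 copy Ndufb4c. Testing was limited to genes with 10 or more normalised counts in 7 or more libraries: 39 of the 41 and 12096 in all. Ndufa4l2 (0 to 11.7 normalised counts) and Ndufa12-ps (0.868 to 71.1) were too low.

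Complex I takes electrons from NADH and passes them through a flavin and a chain of iron-sulfur clusters to ubiquinone, and it pumps protons across the inner mitochondrial membrane as it does so. It is one of the sites at which mitochondria make superoxide, which is turned into hydrogen peroxide. In macrophages, oxidant production at complex I, including production by reverse electron flow, is known to bear on inflammatory activation. The N module binds NADH, the Q module binds ubiquinone, and the proximal and distal parts of the membrane arm hold the proton pumps.

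The cells were monocyte-derived macrophages sorted from the central nervous system of mice with experimental autoimmune encephalomyelitis, which models multiple sclerosis, at its peak. Hosts had been irradiated and given a 50:50 mixture of bone marrow from wt donors (CD45.1) and mCAT donors (CD45.2, CCR2creERT2/+, mcat lsl/wt), so cells of both genotypes developed in the same kind of host. Both genotypes are labelled as treated with tamoxifen, and there were 7 libraries of each. In mCAT cells, a Cre recombinase driven from Ccr2 and active only with tamoxifen removes a stop in front of a catalase directed to mitochondria, so the model depends on past Ccr2 expression and on how many cells recombined. It also carries 1 altered Ccr2 allele, and the genotypes differ in donor strain marker. Neither the age of the animals nor the number pooled for a library is given in the sources used here. Library codes pair 6 wt with 6 mCAT libraries by a shared stem, such as C1_2, and fall into a C1 series (8 libraries) and a C2 series (6 libraries) whose meaning the labels do not give. wt 1 (C1_1) and mCAT 3 (C1_4) have no partner.

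Several features of the libraries may bear on the values below. The estimated depth ran from 16.5 to 43.7 M reads in wt and from 26.7 to 47.3 M in mCAT libraries (M for mega). Macrophage and monocyte markers summed to between 184216 and 309248 normalised counts in wt and between 223242 and 336730 in mCAT libraries, and all 8 of 8 were measured. Of these, 3 had an unadjusted p under 0.05: Itgam (log2 difference 0.59) and Csf1r (0.54) were higher in mCAT and Ccr2 (-0.68) was lower, and 0 were called (limma). T cell markers were low, with 7 of 8 measured and sums of 216 to 759 in wt and 132 to 289 in mCAT, and 5 of the 6 tested were lower in mCAT at an unadjusted p under 0.05. The part of this in the complex I values was not tested. The microglial markers P2ry12, Tmem119, Sall1 and Siglech summed to between 1467 and 5058 in wt and between 2575 and 4115 in mCAT libraries. Of the other planned lists, neutrophil markers summed to 1805 to 5051 in wt and 1791 to 4757 in mCAT libraries. Neuron and glia markers summed to 1503 to 5879 and 1574 to 3647, and all 6 tested had a negative log2 difference. B cell, NK and endothelial sums were at most 1174 in any library. In these lists only the NK marker Nkg7 had an unadjusted p under 0.05 (log2 difference -0.49, limma). Their part in the complex I values was not tested. None of the markers was at 0 in every library. Cat, the catalase gene of the mouse, had 2155 ± 626 normalised counts (mean ± SD, n = 7) in wt against 2831 ± 808 (n = 7) in mCAT. Its value was higher in mCAT in all 6 stems, but it was not called (log2 difference 0.39, adjusted p = 0.878, limma). Whether reads of the catalase directed to mitochondria are counted under Cat was not tested. Ccr2 averaged 13742 ± 5015 in wt and 8391 ± 2975 in mCAT libraries, and mCAT 3, at 14271, was the only mCAT library above 10126. Ccr2 was not called without the stem block (adjusted p = 0.878, limma) and was called with it (log2 difference -0.80, adjusted p = 0.00587), with lower values in mCAT in all 6 stems.

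No nuclear complex I gene passed the test between genotypes, while most of them had a lower mean in mCAT than in wt macrophages. In limma with Benjamini-Hochberg adjustment over all genes tested, 0 of 39 members were called, against 0.198% of all genes (24 of 12096). At an unadjusted p under 0.05 there were 17 of 39 members, all lower in mCAT, against 5.37% of all genes in either direction and 3.03% in that direction. The mean was lower in mCAT for 36 of 39 members, against 50.3% of all genes. The median log2 difference of the members was -0.25, and that of all genes was -0.00. The smallest adjusted p of any member was 0.57, that of Ndufb6. Summed over the 37 subunit genes, wt libraries had 117236 ± 7190 normalised counts and mCAT libraries 100618 ± 11572 (n = 7 each). In bulk samples, fewer cells of a type and less RNA per cell cannot be told apart.

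The number of members at an unadjusted p under 0.05 rested on a few libraries. It was 8 of 39 without mCAT 3, 11 without mCAT 2, 11 without mCAT 6 and 11 without wt 4, and 4 without both unpartnered libraries. It was 21 without wt 3, 23 without mCAT 5 and 21 with the code series as a covariate. Over all genes the corresponding number was 649. That number was 495 without mCAT 3, 515 without mCAT 2, 502 without mCAT 6 and 643 without wt 4. It was 353 without both unpartnered libraries, 686 without wt 3, 924 without mCAT 5 and 826 with the code series. With the code stem as a replicate block it was 12 of 39, all lower in mCAT, against 9.23% of all genes in either direction and 4.24% in that one. The block gave a negative difference for 36 of 39 members (50.2% of all genes), a median of -0.19, and again 0 of 39 called (0.322% of all genes). The members' median log2 difference stayed between -0.28 and -0.19 when each library was left out in turn. The ranges of the groups overlapped for every member: 0 of 39 separated the genotypes completely, against 0.24% of all genes.

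**Figure D1:**
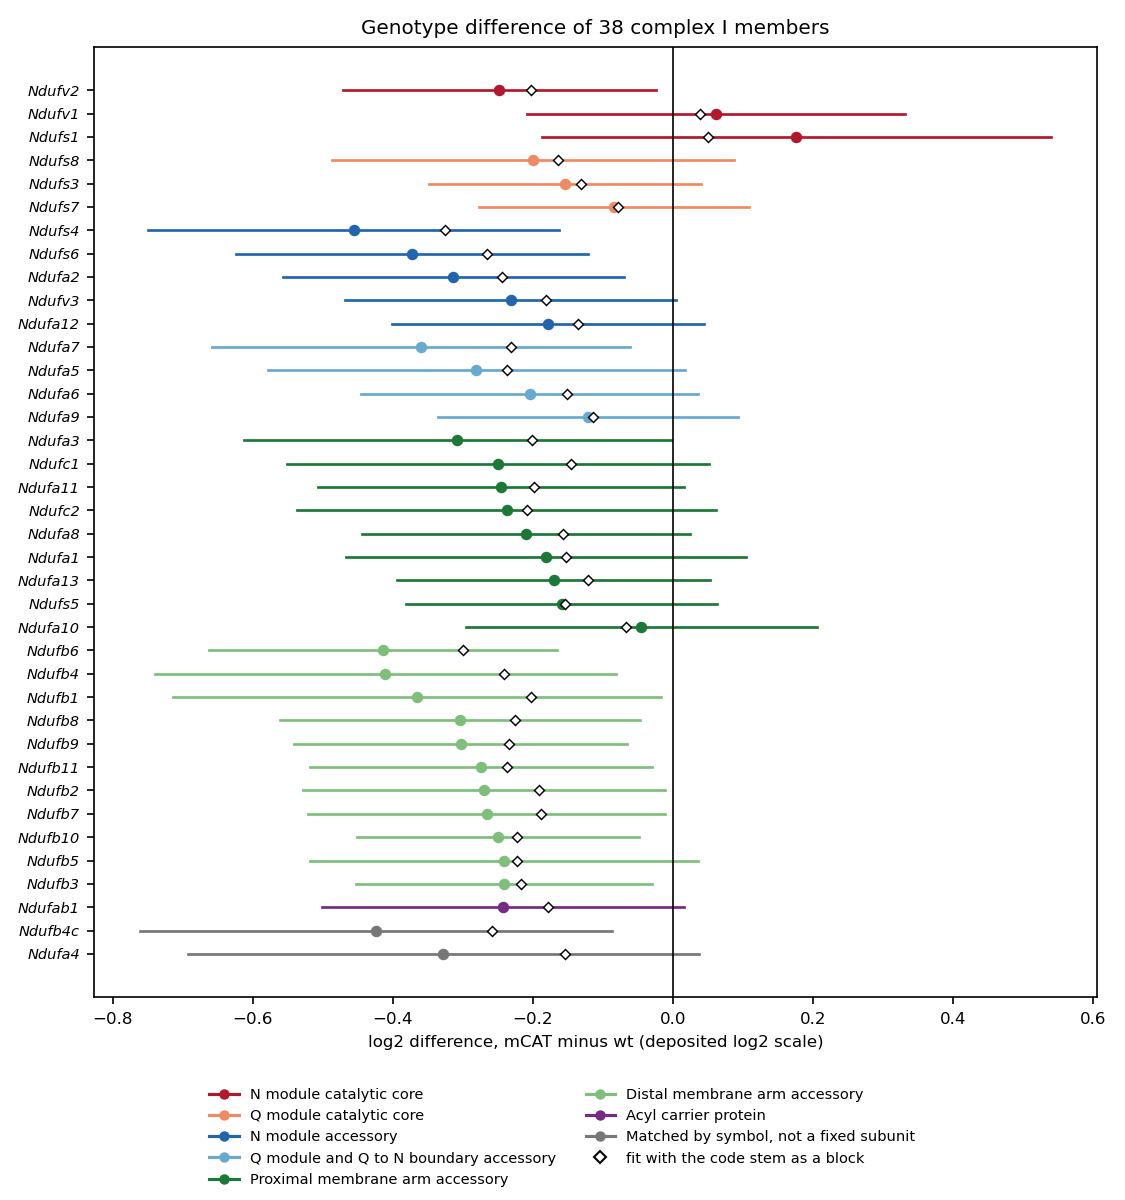
Log2 difference between genotypes (mCAT minus wt, x axis) for 38 complex I members (y axis), grouped by role. Filled points are the estimates without pairing, bars their 95% confidence intervals and open diamonds the estimates with the code stem as a block. The 11 distal membrane arm genes all lie below 0, and of the core genes drawn only Ndufv2 has an interval that ends below 0.

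The catalytic core, which carries the flavin and the iron-sulfur clusters, lay nearest to 0. Core genes are also longer than most accessory genes, and the lengths are given below. Of its 7 genes, 4 had a negative log2 difference, with a median of -0.08, and 1 had an unadjusted p under 0.05 (limma). Of all genes, 50.3% were negative and 5.37% had an unadjusted p under 0.05 in either direction. Ndufv1, which encodes the flavin-carrying subunit that oxidises NADH, had means of 3401 ± 653 normalised counts in wt and 3522 ± 462 in mCAT. Its log2 difference was 0.06, with a 95% confidence interval of -0.21 to 0.33. Ndufs1, the largest subunit, which holds several iron-sulfur clusters, averaged 2478 ± 703 in wt and 2738 ± 438 in mCAT libraries (log2 difference 0.18, 95% confidence interval -0.19 to 0.54). It was lowest in wt 1, at 1308, and its difference was 0.04 without that library and 0.05 with the stem block. Ndufv2, the third core subunit of the N module, averaged 3969 ± 305 in wt and 3344 ± 491 in mCAT libraries. Its log2 difference was -0.25 (95% confidence interval -0.47 to -0.03), 5 of 6 stems were lower in mCAT, and the exact 2-sided permutation test over 7 against 7 libraries gave an unadjusted p = 0.0152, and the sign-flip test over 6 stems gave p = 0.0625.

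The 4 core genes of the Q module had no unadjusted p under 0.05 in limma. Ndufs8, an iron-sulfur subunit, averaged 3520 ± 623 in wt and 3060 ± 652 in mCAT libraries (log2 difference -0.20, 95% confidence interval -0.49 to 0.09). Ndufs3 and Ndufs7 varied least over the 14 libraries of the members tested. Ndufs3 stood at 3416, 3739, 3220, 3708, 3443, 3309 and 3773 normalised counts in wt 1 to wt 7. In mCAT 1 to mCAT 7 it stood at 3651, 3345, 2767, 3173, 3335, 2737 and 3080, so 4 mCAT libraries lay below every wt library and the other 3 lay within the wt range. The means were 3516 ± 223 and 3155 ± 328, a log2 difference of -0.15 with a limma p of 0.113, unadjusted. The exact 2-sided permutation test over 7 against 7 libraries gave an unadjusted p = 0.0332 and the exact sign-flip test over 6 stems p = 0.125. Ndufs7, which carries the last iron-sulfur cluster before ubiquinone, stood at 3492, 4235, 3811, 4080, 4006, 3682 and 3551 in wt 1 to wt 7 and at 4046, 4017, 3204, 3522, 3737, 3285 and 3500 in mCAT 1 to mCAT 7. The groups overlapped over most of their range. The means were 3837 ± 280 and 3616 ± 332, a log2 difference of -0.08.

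All 30 accessory subunit genes had a negative log2 difference, with a median of -0.25, and 15 of 30 had an unadjusted p under 0.05 (limma). Of all genes, 50.3% were negative and 3.03% were lower in mCAT at an unadjusted p under 0.05. Among other genes with transcripts under 1000 bases within the members' range of levels, these shares were 90.5% and 23.5%. Accessory subunits do not take part in electron transfer and stabilise the complex or help it assemble. In the distal membrane arm, 11 of 11 had a negative difference and 10 of 11 an unadjusted p under 0.05 (median -0.27). The corresponding counts were 5 of 5 and 3 of 5 for accessory subunits of the N module (median -0.31), 4 of 4 and 1 of 4 at the Q module and its boundary with the N module (median -0.24), and 9 of 9 and 1 of 9 in the proximal membrane arm (median -0.21). Ndufab1, the mitochondrial acyl carrier protein, which sits in the complex in more than one place, had a difference of -0.24 and an unadjusted p of 0.0638. No test of the difference between these groups was made, and none of the 30 genes was called.

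Ndufb6, an accessory subunit of the distal membrane arm, had the smallest p-value of the members. It stood at 3911, 2689, 2518, 3176, 2961, 3227 and 3095 normalised counts in wt 1 to wt 7 and at 2546, 2423, 1759, 2480, 2649, 1896 and 2245 in mCAT 1 to mCAT 7. Of the mCAT libraries, mCAT 1 and mCAT 5 reached into the wt range and the other 5 lay below it, and each mCAT library with a wt partner lay below that partner. The means were 3083 ± 448 and 2285 ± 338 (SD, n = 7 each), a log2 difference of -0.41 with an adjusted p of 0.57 (limma). The exact 2-sided permutation test gave an unadjusted p = 0.00175 over 7 against 7 libraries, and the exact sign-flip test over 6 stems gave p = 0.0313, the smallest it can give. Ndufb6 was 1 of 5 members that were lower in mCAT in all 6 stems, with Ndufs6, Ndufb10, Ndufb7 and Ndufa12. That was 5 of 39 members against 2.63% of all genes, and 19 of 39 were lower in at least 5 stems against 13.9%.

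Ndufs4 and Ndufs6, both accessory subunits of the N module, followed. Loss of Ndufs4 is a known cause of Leigh syndrome, and Ndufs6 carries a zinc-binding site needed late in assembly. Ndufs4 stood at 5032, 2868, 2798, 3856, 3310, 3767 and 3880 normalised counts in wt 1 to wt 7 and at 2914, 2280, 2062, 2637, 3525, 2514 and 2350 in mCAT 1 to mCAT 7. Its mean was 3644 ± 760 in wt and 2612 ± 486 in mCAT libraries (log2 difference -0.46, adjusted p = 0.755, limma), with 4 of 6 stems lower in mCAT. The wt library without a partner, wt 1, was the highest, and mCAT 3, also without one, was the lowest. Ndufs6 stood at 2768, 2092, 2090, 2564, 2464, 2219 and 2404 in wt 1 to wt 7 and at 1963, 1643, 1307, 1868, 2422, 1634 and 1918 in mCAT 1 to mCAT 7. All mCAT libraries except mCAT 5 lay below every wt library. The means were 2371 ± 253 and 1822 ± 347, a log2 difference of -0.37 (adjusted p = 0.878, limma) and of -0.27 with the stem block.

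**Figure D2:**
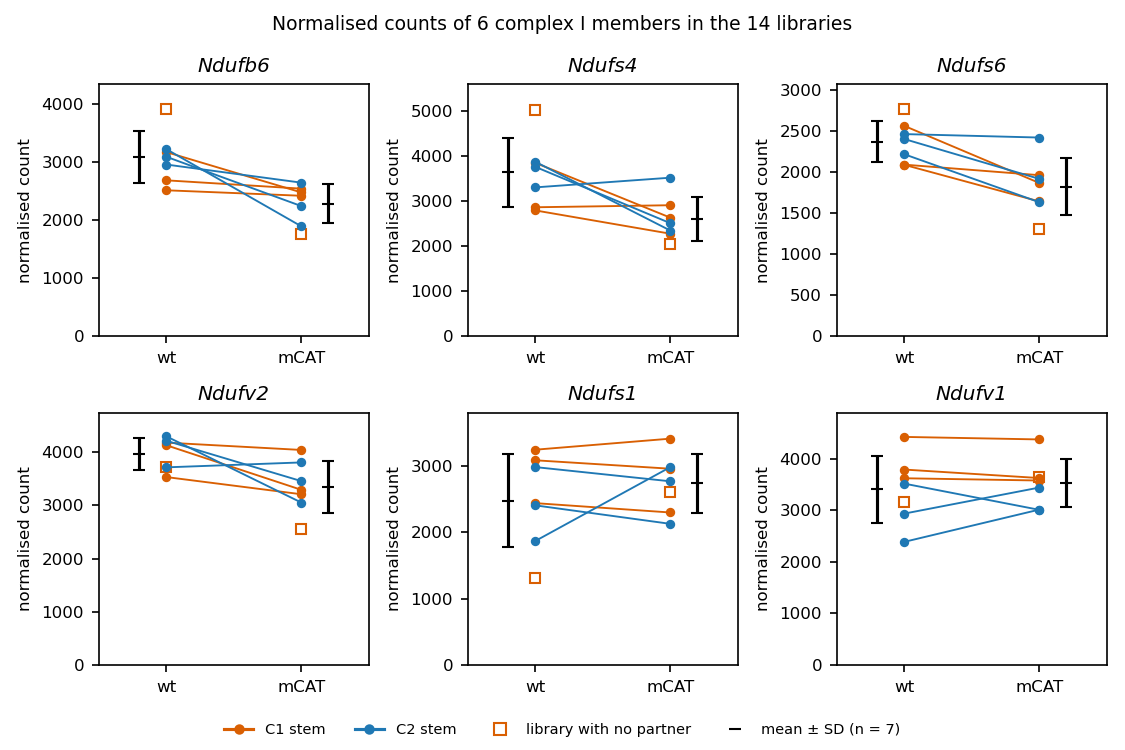
Normalised counts (y axis, from 0) of 3 members with the smallest p-values and 3 core members in the 14 libraries (x axis, genotype). Lines join libraries of 1 code stem, open squares are the libraries with no partner, and black bars give the mean ± SD of 7 libraries. The mCAT end is the lower one in all 6 lines for Ndufb6 and Ndufs6 and in 4 of 6 for Ndufs4, while the means of Ndufv1 are 3401 and 3522.

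The next members by p-value were Ndufa2, Ndufb9 and Ndufb4c. Ndufa2, an accessory subunit of the N module with a thioredoxin-like fold, stood at 4922, 3810, 3667, 4510, 4399, 4624 and 4862 in wt 1 to wt 7 and at 3314, 3603, 2915, 3741, 4461, 2824 and 3879 in mCAT 1 to mCAT 7 (log2 difference -0.31, 5 of 6 stems lower). Ndufb9, a distal arm subunit of the LYR protein family, stood at 5118, 4787, 4298, 5187, 4531, 5151 and 4422 in wt 1 to wt 7 and at 4796, 3423, 3055, 4022, 4748, 3454 and 3739 in mCAT 1 to mCAT 7 (log2 difference -0.30, 4 of 6 stems lower). For Ndufa2, 4 mCAT libraries lay below every wt library, and for Ndufb9 there were 5, while mCAT 5 was inside the wt range for both.

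Ndufb4c and Ndufb4 cannot be separated with certainty, because the annotated Ndufb4c transcript matched Ndufb4 at 100% identity over 390 bases, and Salmon divides reads that fit both. Ndufb4c stood at 735, 366, 330, 471, 422, 654 and 488 in wt 1 to wt 7 and at 348, 297, 207, 355, 445, 312 and 388 in mCAT 1 to mCAT 7. Their sum came to 1660 ± 424 normalised counts in wt against 1184 ± 272 in mCAT. The log2 difference was -0.41 for Ndufb4 and -0.42 for Ndufb4c, and -0.24 and -0.26 with the stem block. The search for copies did not start from Ndufb4c itself. Among the other members, 8 had a near-identical gene in the table (at least 90% identity), and 13 shared exon bases with another gene there. Among the latter, Ndufb6 shared 257 bases with Smim27 on the opposite strand and Ndufs6 shared 30 with Mrpl36. Smart-seq2 reads carry no strand, so reads from such stretches cannot be told apart.

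Ndufa4 and Ndufb1 varied most over the libraries. Ndufa4 stood at 1851, 829, 712, 1076, 1069, 972 and 896 normalised counts in wt 1 to wt 7 and at 842, 666, 644, 782, 1258, 706 and 727 in mCAT 1 to mCAT 7. wt 1 was far above the other wt libraries and mCAT 5 far above the other mCAT libraries. The log2 difference was -0.33, but -0.20 without wt 1 and -0.15 with the stem block. Ndufb1, a small distal arm subunit, stood at 4686, 2564, 2340, 3201, 2629, 2929 and 2383 in wt 1 to wt 7 and at 2213, 1920, 1773, 2686, 3403, 1767 and 2101 in mCAT 1 to mCAT 7. The same libraries, wt 1 and mCAT 5, were the highest of their groups. Its log2 difference was -0.37, and -0.20 with the stem block.

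The remaining distal arm genes lay close together. Ndufb8, of these the most abundant per base of coding sequence, had a median of 6140 normalised counts in wt (4592 to 7100) and of 4800 in mCAT libraries (4063 to 5990). Ndufb10, whose product carries disulfide bonds, had a median of 2471 (2151 to 2949) in wt and 2083 (1721 to 2335) in mCAT libraries, with a log2 difference of -0.25. Ndufb7, which has the twin cysteine motif of proteins imported to the intermembrane space, had a median of 2934 (2638 to 3803) in wt and 2588 (1955 to 3211) in mCAT libraries. The log2 differences of Ndufb2, Ndufb3, Ndufb5 and Ndufb11 lay between -0.27 and -0.24. Ndufb5 was the distal arm gene whose unadjusted p, 0.0840, did not pass 0.05.

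In the proximal membrane arm the range was from -0.31 for Ndufa3 to -0.05 for Ndufa10. Ndufa3, a single-pass membrane subunit, averaged 2334 ± 414 in wt and 1872 ± 402 in mCAT libraries. Ndufa10, a nucleoside-kinase-like subunit, averaged 3941 ± 766 and 3772 ± 344, with a 95% confidence interval of -0.30 to 0.21 for its difference. Ndufa13, also known as Grim19, averaged 3795 ± 488 and 3352 ± 363 (log2 difference -0.17). At the Q module and its boundary, Ndufa7 had the largest difference (3630 ± 645 against 2817 ± 609, log2 difference -0.36). Ndufa9, which lies near the ubiquinone site, had the smallest (4054 ± 518 against 3700 ± 309, log2 difference -0.12).

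Members varied together from library to library. In mCAT 3, 25 of 39 members had their lowest value of all 14 libraries, and in mCAT 6 there were 9 more. The highest values lay in wt 7 (11 members), wt 1 (10) and wt 6 (8). The median deviation of the members from their own means was -0.41 (log2) in mCAT 3 and -0.27 in mCAT 6, and it was 0.24 in wt 6 and 0.22 in wt 7. mCAT 5 stood at 0.10, above 3 of the wt libraries, and wt 3, at -0.08, below 3 of the mCAT libraries. By stem, 35 of 39 members were lower in mCAT in C2_2 (median -0.55) and 35 in C2_4 (median -0.25). There were 37 in C1_5 (median -0.26), 27 in C1_2 (median -0.04) and 27 in C1_3 (median -0.05). In C2_1 only 16 of 39 were lower, with a median of 0.02. Of all 12096 genes tested, between 5861 (C1_3) and 6224 (C2_1) were lower in mCAT by stem.

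**Figure D3:**
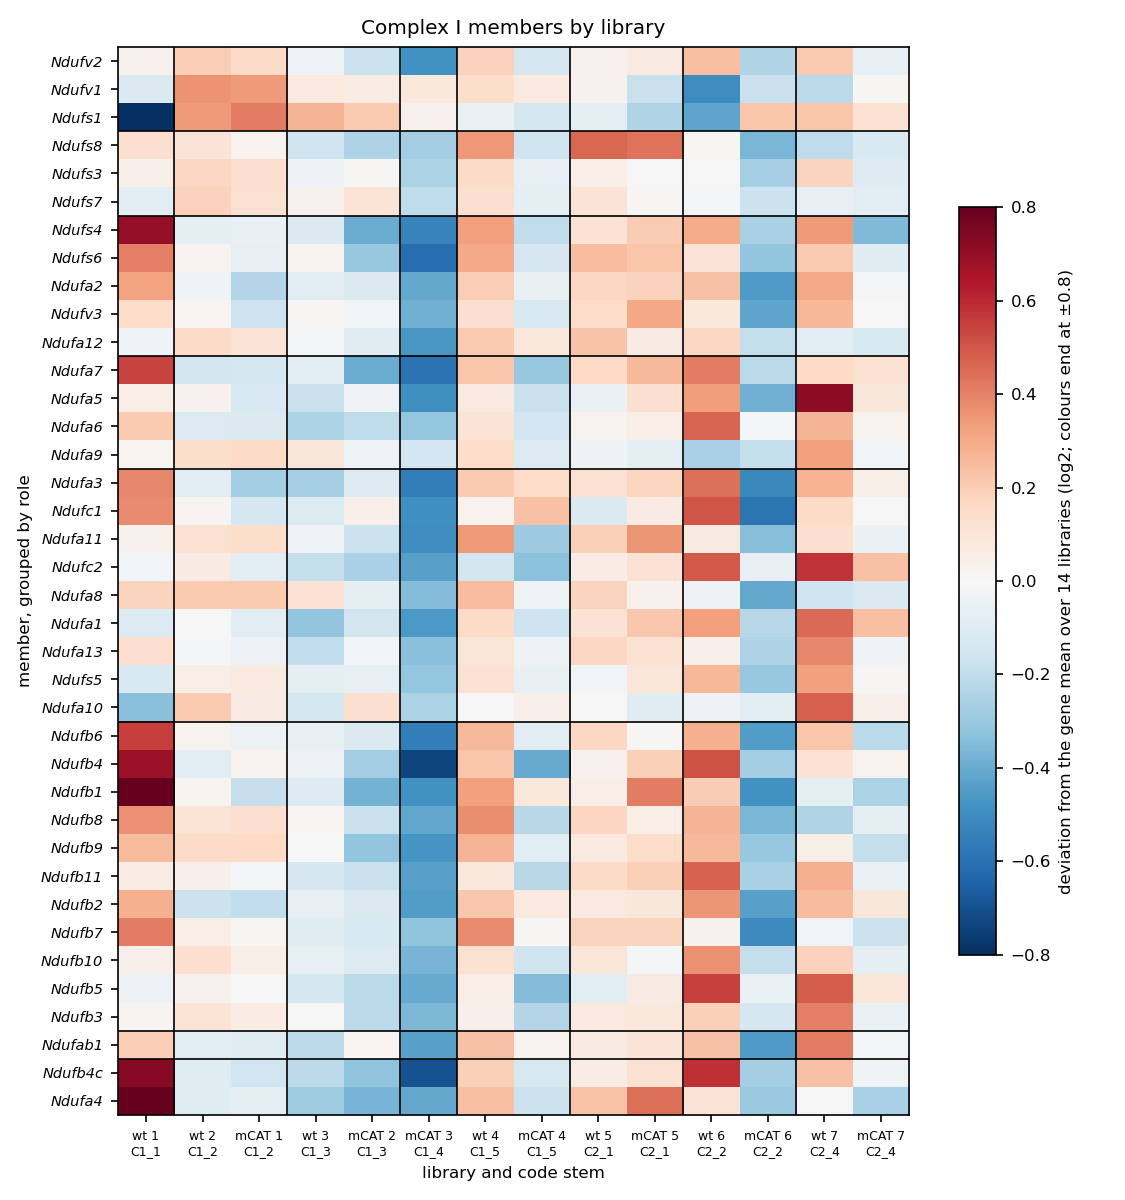
Deviation of 38 complex I members (rows, grouped by role) from their own means over the 14 libraries (columns, ordered by code stem), in log2 units with colours ending at ±0.8. The columns of mCAT 3 and mCAT 6 are blue for most members, and in wt 1 the core gene Ndufs1 is low where Ndufb1, Ndufb4 and Ndufa4 are high.

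The unpartnered library wt 1 separated the roles more than any other library. There the distal arm genes had a median deviation of 0.28 and the core genes of -0.09, a gap of 0.37. In wt 6 the gap was 0.29 (0.28 against -0.01), and in the other 12 libraries it ran from -0.24 to 0.08. In mCAT 3 both groups were below their means, at -0.43 for the distal arm and -0.21 for the core.

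The members' median genotype difference was similar in both code series, and C1 holds both unpartnered libraries. By stem, the medians ran from -0.26 (C1_5) to -0.04 (C1_2) in C1 and from -0.55 (C2_2) to 0.02 (C2_1) in C2. Within C1 (4 wt and 4 mCAT libraries), 35 of 39 members had a negative difference and the median was -0.23. Within C2 (3 and 3), 36 of 39 did and the median was -0.24. Among all genes the shares below 0 were 50.3% and 49.7%. In the test of the interaction between genotype and code series, 0 of 39 members were called, against 0% of all genes, and 0 members and 2.8% of all genes had an unadjusted p under 0.05 (limma). The interaction term was negative for 22 of 39 members and 48.9% of all genes. Between the code series themselves, with genotype in the model, 0 of 39 members were called against 2.71% of all genes, and 4 members had an unadjusted p under 0.05 against 17.1%. These 4 were Ndufc2 (log2 difference C2 minus C1 of 0.42), Ndufa1 (0.34), Ndufb5 (0.32) and Ndufv1 (-0.29). The difference, C2 minus C1, was negative for 9 of 39 members and 51% of all genes. Ndufc2, an accessory subunit of the proximal arm, stood at 2732, 2906, 2418, 2495, 2901, 3953 and 4207 normalised counts in wt 1 to wt 7 and at 2599, 2299, 2021, 2186, 3014, 2646 and 3294 in mCAT 1 to mCAT 7. Its values in wt 6 and wt 7 were the highest of all. Its adjusted p was 0.101, but it was called, at 0.0479, without wt 5, and at 0.0253 when libraries of 1 stem were treated as independent (limma).

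Transcripts of complex I subunits are mostly short, and short genes as a class had lower means in mCAT. Coding lengths came from GENCODE M21 and were found for 37 of the 39 members, not for Ndufb1 and Ndufb4c. Of the members, 27 have a coding length under 600 bases. All 27 had a negative log2 difference, with a median of -0.27. Among the 1602 other genes of that length, 74.0% were negative and the median was -0.10. An unadjusted p under 0.05 with a lower mean in mCAT was found for 14 of the 27 members and 10.8% of the other genes, or 14.4% of the 882 other genes within the members' range of levels. By transcript length the other genes lay nearer to the members. For transcripts under 1000 bases, the 23 members had a median of -0.28, and the 379 other genes within the members' range of levels had a median of -0.18, with 90.5% negative and 23.5% lower in mCAT at an unadjusted p under 0.05, against 14 of the 23 members. For 6 members of 600 to 1200 bases the median was -0.14 and for other genes -0.01. For the 4 members of 1200 to 2400 bases it was 0.04, and 0.04 for the others. They include the core genes Ndufs1 and Ndufv1, and Ndufv3, whose length is that of its longest isoform. Coding lengths of the core genes ran from 636 (Ndufs8) to 2181 bases (Ndufs1), while most accessory genes were under 600. Of the longer accessory genes, Ndufa9 (1131 bases) and Ndufa10 (1065 bases) stood at -0.12 and -0.05, and Ndufv3 (1404 bases) at -0.23. Role and coding length overlap, and their parts were not tested. Measured against other genes of the same coding-length class, the members' median was -0.15 in place of -0.25, and -0.14 against genes of the same transcript-length class.

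The level of short against long genes also differed between libraries. The median deviation of genes under 600 bases minus that of genes over 1200 bases had a median of 0.09 in wt (-0.06 to 0.19) and -0.06 in mCAT libraries (-0.23 to 0.17). It was lowest in mCAT 3 (-0.23) and mCAT 6 (-0.18), the same libraries in which the complex I genes were lowest, and among mCAT libraries it was highest in mCAT 5 (0.17). The part of this length difference in the complex I values was not tested.

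**Figure D4:**
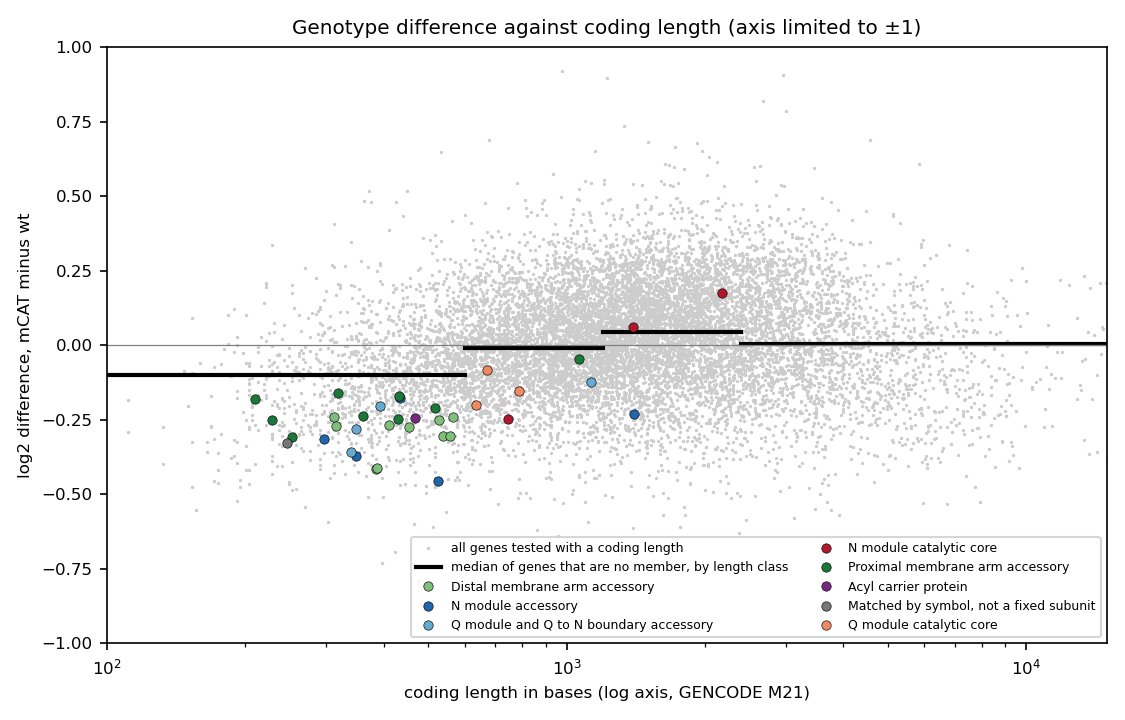
Log2 difference between genotypes (y axis, limited to ±1) against coding length in bases (x axis, log scale) for all genes tested that have a length (grey) and for complex I members (coloured by role). Black lines are the medians of genes that are no member in each length class. For coding lengths under 600 bases the black line lies at -0.10, and most members lie below it.

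Levels of different subunits were compared per kilobase of coding sequence, as means over all 14 libraries. Ndufa1, a short membrane subunit encoded on the X chromosome, had the highest level, with 16288 normalised counts per kilobase. Ndufa2 (13355) and Ndufb8 (9911) were next. Ndufs1 had the lowest level, with 1196 per kilobase, and Ndufv3 (2137) and Ndufv1 (2487) were the next lowest. This scale leaves out untranslated regions, so genes with long ones are set too high where reads from them were counted.

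The genes around complex I were described with lists. Of 16 assembly factors tested, which build the complex without staying in it, 0 were called and 0 had an unadjusted p under 0.05. Their median log2 difference was -0.05, with 11 of 16 negative. The assembly factors with the smallest p-values were Timmdc1 (170 ± 22.4 against 207 ± 27.9 normalised counts, log2 difference 0.18) and Ndufaf5 (281 ± 42.2 against 239 ± 50.7, log2 difference -0.18). The mitochondrially encoded subunits mt-Nd1 to mt-Nd6 form the proton-pumping core of the membrane arm. Of the 6 tested, all 6 were lower in mCAT, with a median of -0.40, 0 were called and 0 had an unadjusted p under 0.05. With the stem block their median was -0.19. mt-Nd5 averaged 16188 ± 5982 in wt and 12141 ± 3633 in mCAT libraries, and mt-Nd3 averaged 886 ± 347 and 623 ± 175.

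Of 39 nuclear genes of the other respiratory complexes, 0 were called, and 33 were negative, with a median of -0.23. At an unadjusted p under 0.05 (limma) there were 16, all lower in mCAT, against 3.03% of all genes in that direction. Atp5po, a stalk subunit of ATP synthase, averaged 6565 ± 605 in wt and 5226 ± 523 in mCAT libraries (log2 difference -0.32). Cox7a2, a subunit of cytochrome c oxidase, averaged 5850 ± 1161 and 4228 ± 871 (log2 difference -0.46). Among 11 regulators of respiratory gene transcription 0 were called and 0 had an unadjusted p under 0.05 (median -0.01), with Polrmt, the mitochondrial RNA polymerase, at 418 ± 104 against 504 ± 99.1 and Gabpa, an ETS factor, at 493 ± 85.1 against 558 ± 80.7. Among 13 genes of iron-sulfur cluster assembly 0 were called and 0 had an unadjusted p under 0.05 (median -0.03), with Bola3 at 855 ± 181 against 715 ± 95.2 and Glrx5 at 341 ± 98.2 against 418 ± 123.

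Promoter motifs were counted as planned, and their part in the shared variation of the members between libraries was not tested. RefSeq start sites on GRCm38.p6 gave 36 promoters of 34 member genes, each from 250 bases before to 50 bases after the start. Letters were searched on both strands for factors known to act on respiratory genes, and none of the letter strings holds another. Genes with no entry included Ndufa2, Ndufa4l2, Ndufa12-ps, Ndufb4c, Ndufb9 and Ndufs1. The YY1 letters, in capitals in the stretches shown next, occurred in 4 of 36 member promoters (11.1%) and in 0.633% of all 32851 promoters. The palindromic NRF1 motif occurred in 2.78% against 0.971%, in Ndufa11. The ETS letters CCGGAAGT occurred in 2.78% against 3.89%, in Ndufs3. The SP1 letters GGGCGG were found in 44.4% against 35.7%, and CCAAT in 27.8% against 37.4%.

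The 4 promoters with the YY1 letters belong to Ndufa9, Ndufs4, Ndufs6 and Ndufs7, which have log2 differences between genotypes of -0.12, -0.46, -0.37 and -0.08. The stretch around the match is shown for each, 5′ to 3′ on the gene's strand with the matched letters in capitals. All 4 matches lie on the gene's own strand, 25 to 36 bases after the start site, and so in transcribed sequence. The letters contain ATG, and it was not tested whether they cover the start codon of these genes. The positions on GRCm38.p6 are chr6:126849096-126849124 (minus strand) for Ndufa9, chr13:114388045-114388073 (minus) for Ndufs4, chr13:73328433-73328461 (minus) for Ndufs6 and chr10:80249464-80249492 (plus) for Ndufs7.
Ndufa9: ttgtgggagAAGATGGCGGCcgccgtccg
Ndufs4: cgtttgcctacaggAAGATGGCGGCggtc
Ndufs6: agggtcaccggcAAGATGGCGGCggtgct
Ndufs7: gccgaggccAAGATGGCGGCgctggcggg

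For comparison, the 250 bases before the start are shown for Ndufb6 and Ndufs6, which were lower in mCAT in all 6 stems, and for Ndufv1, which was not. They lie at chr4:40279422-40279671, chr13:73328483-73328732 and chr19:4012756-4013005 of GRCm38.p6, all on the minus strand. Capitals mark SP1 letters on either strand, of which Ndufb6 has 2 matches. The NRF1, ETS and YY1 letters are not in these 3 windows.
Ndufb6: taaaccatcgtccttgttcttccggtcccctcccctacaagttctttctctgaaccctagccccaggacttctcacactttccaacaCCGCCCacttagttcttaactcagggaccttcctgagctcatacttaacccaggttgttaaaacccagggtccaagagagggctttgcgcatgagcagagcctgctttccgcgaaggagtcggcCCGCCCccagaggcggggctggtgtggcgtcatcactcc
Ndufs6: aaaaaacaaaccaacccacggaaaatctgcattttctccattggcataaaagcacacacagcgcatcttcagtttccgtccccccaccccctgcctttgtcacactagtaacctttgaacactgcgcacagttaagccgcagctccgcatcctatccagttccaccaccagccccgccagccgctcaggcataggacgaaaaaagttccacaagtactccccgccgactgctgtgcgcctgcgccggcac
Ndufv1: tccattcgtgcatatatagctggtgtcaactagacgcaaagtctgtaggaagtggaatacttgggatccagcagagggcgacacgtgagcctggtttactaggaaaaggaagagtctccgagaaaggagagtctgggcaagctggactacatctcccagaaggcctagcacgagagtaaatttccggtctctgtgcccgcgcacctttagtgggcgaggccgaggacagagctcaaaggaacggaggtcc

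Members are spread over 17 chromosomes. The donors differ at Ptprc, the gene of the CD45 marker on chromosome 1, and DNA around it may come from different strains. No member lies within 10 Mb of it by RefSeq gene positions. Ndufa10 is 45.6 Mb away, Ndufs1 74.9 Mb and Ndufb3 79.5 Mb.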

How the data were processed

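RNA was measured in 14 libraries, 7 wt and 7 mCAT, made with Smart-seq2 per the labels' protocols. The submitters' processing notes name FastQC, fastp, Salmon and GRCm39, and no versions or annotation are given in the sources used here. The authors deposited 1 table of log2 values, although its title speaks of raw counts: all libraries share 1 lowest value, 5.96, and the form is that of a variance-stabilising transformation. Undoing its closed form gave normalised counts. Depth was estimated roughly from the size of 1 read, and between 57.1% and 78.5% of low values lay within 0.15 of a whole number, so whole reads were not recovered. The library with the lowest estimated depth, wt 7 (16.5 M), held the highest value of 11 members. The part of depth in the complex I values was not tested.

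The deposited log2 values were tested with limma 3.58.1 in R 4.3.3 (trend, robust moderation with statmod 1.5.0), 2-sided, with Benjamini-Hochberg adjustment over 12096 genes and a threshold of 0.05. The script was tested on simulated data with known shifts, all larger than the members' median difference. Whether differences of that smaller size would be called was not tested. The comparison of C2 with C1 and the interaction used an estimated correlation of libraries of 1 stem (0.463 and 0.430). Exact permutation and sign-flip tests were run on 14 named members, and their p-values are unadjusted. For those not given above, the permutation test gave 0.00874 for Ndufs4, 0.00699 for Ndufs6, 0.0140 for Ndufa2 and 0.0128 for Ndufb9. It gave 0.0204 for Ndufb4c, 0.0991 for Ndufa4 and 0.0589 for Ndufb1. The sign-flip test gave 0.0313 for Ndufs6, 0.0625 for Ndufa2 and 0.125 for Ndufs4 and Ndufb9. It gave 0.0938 for Ndufb4c and 0.188 for Ndufa4 and Ndufb1. The stem was taken to pair libraries, although no label says what it is, and the pairing is an assumption. Partners of the 6 stems had deviations that correlated at 0.232 (C2_1) to 0.659 (C1_2) over all genes tested. Of libraries with different stems, wt 2 and mCAT 2 correlated at 0.158 and wt 3 and mCAT 3 at 0.252. P-values measure the spread between these libraries, since the labels do not say whether they come from separate hosts. Near-identical transcripts were found with BLAST 2.17.0 in GENCODE M21, and promoters are from RefSeq. These are of GRCm38, not of the build of the deposited values.

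Values in every library are given for the 6 members with the smallest p-values, those called in any fit, and the pairs with the largest and the smallest SD. Core subunits are given by mean and SD, except 1 that is not reported here by name. A further microglial marker of the planned list is not reported here and was left out of the sums. Listed genes are named only where they were 1 of the 2 with the smallest p. Markers are named where they had an unadjusted p under 0.05 or define microglia, which was chosen after their values were seen. T cell markers are counted and not named. Other members were chosen after their values were seen, to show the range of their role. The members and lists were chosen with earlier results of these data known. Alternatives were other scalings, filters, moderation, weights, covariates and blocks, and each library left out.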

Additional observations from a re-analysis of the deposited data

Results flagged for a closer look

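Among 82 groups of 7 libraries (41 members in each genotype), 3 held a library whose distance from the next exceeded Dixon's 95% limit, where chance flags about 5% of groups. Ndufa4 stood at 1851 normalised counts in wt 1, against 712 to 1076 in the other wt libraries. In mCAT 5 it stood at 1258, against 644 to 842 in the other mCAT libraries. The pseudogene Ndufa12-ps stood at 71.1 in wt 1, against 6.49 to 18.3 in the other wt libraries, a level too low to be tested. Ndufa12, from which its reads cannot be told apart with certainty, stood at 1905 in wt 1.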

How the results depend on the processing

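No complex I member was called between genotypes under any of the scalings, filters, moderation settings, blocks, weights or left-out libraries tried, and the median log2 difference of the members was negative under each. The number of all genes called was 24, ran from 18 to 25 with each library left out, and was 39 with the replicate block by code stem, which called no member. The replicate block by title number joins some libraries of different stems that correlate at 0.158 and 0.252. With it, 27 of 39 members had an unadjusted p under 0.05, against 1233 of all 12096 genes, and 0 members were called. Without both unpartnered libraries, a setting chosen after seeing the data like the length-class settings and the limit to 37 subunit genes, the members' median was -0.19. Between the code series, 1 member was called when stems were treated as independent, and leaving out each library gave 0 to 1. Core genes near 0, among them Ndufv1 and Ndufs1, changed sign. Ndufv1 stood at -0.00436 with the title-number block, -0.00262 with array weights and between -0.0167 (without wt 6) and 0.126 with each library left out. Ndufs1 stood at -0.0126 with the title-number block. The causes were not tested. The 37 subunit genes were measured far above the filter on low values, and the spread between libraries sets the width of their intervals. Differences of the size seen here did not pass the adjustment over 12096 genes.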
